A study of Mus musculus with 24 samples.

Results

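Expression of 30 genes of cholesterol synthesis, its control, and the uptake, transport and storage of cholesterol was followed through RNA-seq libraries of mouse ileum and liver. They were taken by gene symbol from a list of 30 names, and all 30 were found among the 40481 genes of the deposited tables. Every one of them had reads in all 24 libraries, from 4.93 CPM (a gene's reads scaled to a common number of reads assigned to genes; Ggps1 in a liver library) to 1902 (Hmgcs1 in another), and all 30 passed the filter on low values in both tissues.

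The animals were C57BL/6 mice whose small bowel had been resected by 75%, and tissue was taken 10 weeks later. All groups had been operated on, and all carried the floxed Abca1 allele on both chromosomes (Abca1 fl/fl, here floxed). In the knockout groups (Abca1 fl/fl X Villin-Cre, here Villin-Cre) a Cre recombinase under the villin promoter, which is active in the epithelium of the gut, removes the floxed part of Abca1 there. Mice of both genotypes were given by mouth either 1 mg/kg/day of GW3965, a small molecule that activates the liver X receptors (LXR), 2 times a week for the last 5 weeks, or its vehicle, 0.5% carboxymethyl cellulose. Ileum and liver were each sampled in the 4 combinations, which gives 8 groups of 3 libraries. The labels used here state no age, nor whether the 3 libraries of a group, or an ileal and a hepatic library, came from separate or from the same animals.

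Cholesterol is made from acetyl-CoA in a long series of steps. Most genes of the pathway are switched on together by the transcription factor SREBP2, the product of Srebf2, which the escort protein Scap carries to the Golgi for cleavage when sterols are low and which Insig1 and Insig2 hold back in the endoplasmic reticulum when sterols are high. The liver is a main site of synthesis, while the intestine both makes and absorbs sterols. LXR is the counterpart of SREBP2: it is activated by oxysterols and turns on export genes such as Abca1, whose protein passes cholesterol to apolipoprotein A-I.

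RefSeq promoter windows (GRCm38.p6), 250 bases before to 50 bases after a start site, were at hand for 24 of the 30 genes. The others are Fdps, Soat2, Npc1, Sqle, Stard4 and Fdft1. Below are the bases upstream of 4 members that the results turn on: Hmgcs1, the gene with the highest level per kilobase in floxed vehicle liver; Sc5d, a late enzyme that differed in every comparison of the liver genotypes and of ileal GW3965; and Insig1 and Insig2, whose RNAs went different ways in liver. Each is written 5′ to 3′ on the strand of its gene and ends at the last base before the start site, except that of Insig1, which stops 49 bases earlier, where GENCODE M21 places the start of the transcript. Capitals mark any match, on either strand, to the core of a sterol regulatory element (TCACNCCAC), the NF-Y box (CCAAT, or ATTGG on the other strand), the Sp1 box (GGGCGG, or CCGCCC) and the E-box CACGTG, and no match overlaps another. The windows are chr13:119690101-119690350 on the plus strand for Hmgcs1, chr9:42264301-42264550 on the minus strand for Sc5d, chr5:28071162-28071362 on the plus strand for Insig1 and chr1:121332590-121332839 on the minus strand for Insig2.
Hmgcs1: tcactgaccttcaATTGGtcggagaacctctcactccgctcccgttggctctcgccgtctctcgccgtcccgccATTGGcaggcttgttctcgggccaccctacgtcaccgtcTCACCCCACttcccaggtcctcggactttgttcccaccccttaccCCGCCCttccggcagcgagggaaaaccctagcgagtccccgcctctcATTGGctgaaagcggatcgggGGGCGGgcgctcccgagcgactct
Sc5d: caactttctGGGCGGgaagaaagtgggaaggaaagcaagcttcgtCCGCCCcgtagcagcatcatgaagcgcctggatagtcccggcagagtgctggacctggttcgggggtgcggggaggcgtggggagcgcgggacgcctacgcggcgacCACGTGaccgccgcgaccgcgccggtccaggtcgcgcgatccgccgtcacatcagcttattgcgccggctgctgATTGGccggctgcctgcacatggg
Insig1: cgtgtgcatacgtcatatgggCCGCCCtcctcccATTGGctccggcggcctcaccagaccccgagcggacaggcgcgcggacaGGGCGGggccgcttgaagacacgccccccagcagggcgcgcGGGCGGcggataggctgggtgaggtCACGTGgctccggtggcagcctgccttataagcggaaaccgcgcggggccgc
Insig2: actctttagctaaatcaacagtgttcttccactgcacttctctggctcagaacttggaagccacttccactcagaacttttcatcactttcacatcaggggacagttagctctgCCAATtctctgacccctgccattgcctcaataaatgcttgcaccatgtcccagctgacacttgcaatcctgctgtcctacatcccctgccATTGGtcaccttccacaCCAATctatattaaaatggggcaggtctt

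The sterol regulatory core was found in 1 of the 24 genes with a window, Hmgcs1, where it starts 137 bases before the start site with NF-Y boxes at 237, 176 and 45 bases before it. This core was held by 1.24% of all 32851 windows. The 24 genes have 30 windows, since some have several starts. An NF-Y box was present in 22 of these 30, against 37.4% of all windows, and an Sp1 box in 25 of the 30, against 35.7% of all windows. CACGTG was found in 6 of the 30 (of Hsd17b7, Insig1, Dhcr7, Sc5d and Scap), against 7.15%. Windows of Scap overlap and share 1 CACGTG, so these counts are of windows and not of separate sites. The stretch of Insig2 printed holds NF-Y boxes alone. Windows at other starts of Insig2 hold Sp1 boxes, 6 and 128 bases before the start. These are matches of letters and say nothing of binding.

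Between 16.96 M and 24.2 M reads per library were assigned to genes in the ileum and between 26.4 M and 32.3 M in the liver. Most libraries of a group were very close to each other: the variance between 2 libraries of a group was 2.58 to 3.43 times that of Poisson counting in 19 of 24 pairs, against 7.54 to 61.1 times between groups. Of the genes with fewer than 20 reads, 64.8 to 69.7% had an even number, as would be left if both mates of a pair were counted. Whether part of the excess over Poisson comes from counting was not tested. The libraries that stood apart from their groups were replicate 3 of floxed GW3965 in the ileum (8.42 and 8.80 times) and replicate 1 of floxed GW3965 in the liver (10.6 and 10.7 times). For each comparison that includes one of these libraries the counts are given with and without them. Because the labels do not say whether close libraries are repeats of 1 source, each comparison was also run with close libraries averaged into 1. This left 2 units in each floxed GW3965 group and 1 in every other group. The spread in that fit comes from the floxed GW3965 groups alone. Few calls there cannot show that a difference is absent. As the labels leave this open, all p-values rest on differences among libraries that may be only technical. The spread of a gene is shared by all groups of a fit. The libraries that stand apart thus also enter comparisons that leave out their groups. Abca1 itself was at 54.2 to 59.9 CPM in floxed vehicle ileum and at 25.7 to 30.6 in Villin-Cre vehicle ileum, and reached 251 to 438 in floxed GW3965 ileum against 53.7 to 54.0 in Villin-Cre GW3965 ileum. In liver Abca1 was at 327 to 342 (floxed vehicle), 464 to 479 (floxed GW3965), 225 (Villin-Cre vehicle) and 377 to 382 (Villin-Cre GW3965), so that its level was lower in Villin-Cre liver as well.

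Compared per kilobase of exon, the order of the genes differed between the tissues. In floxed vehicle ileum the highest level was that of Soat2, which esterifies cholesterol for chylomicrons, at 81.6 ± 1.9 CPM per kilobase (SD, n = 3). It was followed by Hmgcs1, which makes HMG-CoA (52.8 ± 2.1), by Srebf2 (44.0 ± 1.7) and by Stard4, a sterol carrier of the cytosol (38.3 ± 1.6). None of these neighbours overlapped in their 3 libraries. In floxed vehicle liver Hmgcs1 (225 ± 6.6) and Insig1 (217 ± 4.1) were at the top, with ranges that overlapped, followed by the desaturase Sc5d (141 ± 2.4) and by Fdps, which makes farnesyl diphosphate (88.9 ± 1.8). At the lower end of both tissues stood Soat1, the esterifying enzyme of most other cells, at 2.17 ± 0.16 in ileum and 1.96 ± 0.11 in liver, and Ggps1, which leads to the prenyl groups of proteins, at 1.82 ± 0.25 and 1.10 ± 0.034. Msmo1, Dhcr7 and Tmem97 changed by 7 or 8 places in the ileal order when the longest transcript was used in place of all exons.

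**Figure D1:**
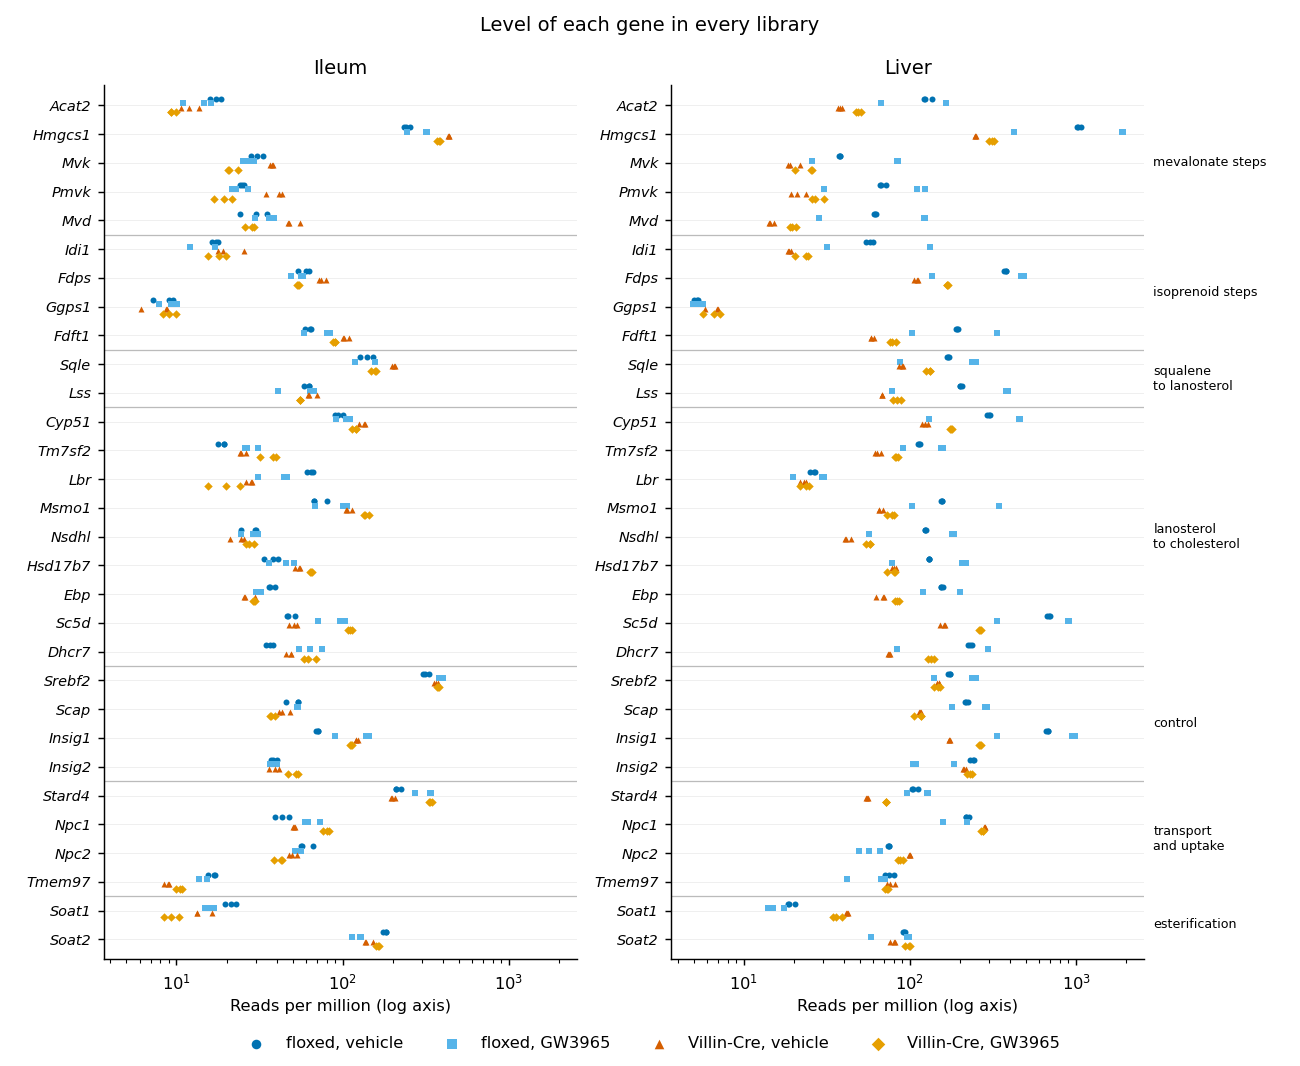
Level of each of the 30 genes in every library, ileum on the left and liver on the right, in CPM on a log axis; each mark is 1 library, with colour and shape for the group. In liver the marks of Villin-Cre mice lie to the left of floxed vehicle for most enzymes, and 1 floxed GW3965 library lies far from the other 2 (Hmgcs1: 426 against 1902 and 1894).

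The widest difference between genotypes was in the liver. Under vehicle, 18 of the 20 synthesis enzymes were lower in Villin-Cre than in floxed liver, from the first thiolase step to the last reductase, with a median log2 difference over the 20 of −1.56. Over all 30 genes, 21 were lower and 4 higher, and the median was −1.08. Over all 17520 genes tested the direction was the other way, with 11.7% lower and 45.1% higher (limma, adjusted p under 0.05) and a median of 0.26. All 5 genes of the mevalonate steps (Acat2, Hmgcs1, Mvk, Pmvk and Mvd), 3 of the 4 isoprenoid genes (Idi1, Fdps and Fdft1), both of Sqle and Lss, and 8 of the 9 from lanosterol to cholesterol were lower. Lbr, which besides its sterol reductase activity anchors chromatin at the nuclear envelope, did not pass (−0.19 ± 0.13, SE, adjusted p = 0.22), while Tm7sf2, the reductase for the same step, was lower (−0.83 ± 0.15, adjusted p = 0.00023).

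Sc5d, which introduces a ring double bond late in the pathway, was at 672, 686 and 695 CPM in floxed vehicle liver and at 152, 160.5 and 163 in Villin-Cre vehicle liver. This is a 4.31-fold lower level (log2 difference −2.11 ± 0.26, adjusted p = 8.4e-06). Hmgcs1 was at 1010, 1029 and 1069 against 248 in each of the 3 Villin-Cre libraries, 4.17-fold lower (−2.06 ± 0.39, adjusted p = 0.00042). Mvd, the decarboxylase that ends the mevalonate steps, was at 60.6, 62.0 and 62.8 against 14.3, 14.3 and 15.3, 4.12-fold lower (−2.04 ± 0.38, adjusted p = 0.00035). In these 3 genes the lowest floxed library was several times above the highest Villin-Cre library. Higher in Villin-Cre liver were Soat1, 2 lysosomal genes and the prenyl enzyme Ggps1. Soat1 was at 18.5, 18.7 and 20.4 in floxed and at 41.1, 42.1 and 42.0 in Villin-Cre liver (1.10 ± 0.08, adjusted p = 4.5e-08). Npc2, which hands cholesterol over inside the lysosome, was at 75.2, 74.0 and 74.4 against 99.1, 100.02 and 99.9 (0.42 ± 0.08, adjusted p = 0.00037). Npc1, the lysosomal membrane protein that receives it, was at 217, 225 and 216 against 279, 283 and 283 (0.36 ± 0.09, adjusted p = 0.0046). The fourth was Ggps1 (0.31 ± 0.12, adjusted p = 0.036). When libraries were scaled by the median of gene ratios, which brings the median of all genes from 0.26 to 0.01, the split became 1 higher (Soat1) and 25 lower.

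Under GW3965 the liver genotypes differed in 23 genes, 19 lower and 4 higher in Villin-Cre, against 15.0% of all genes lower and 40.9% higher. Mvd was at 28.5, 123 and 121 in floxed and at 19.0, 20.5 and 19.5 in Villin-Cre liver (−1.91 ± 0.38, adjusted p = 0.00057). Hmgcs1 was at 426, 1902 and 1894 against 299, 313 and 322 (−1.89 ± 0.39, adjusted p = 0.0008). Idi1, the isomerase of the first isoprenoid unit, was at 31.5, 132 and 132 against 20.5, 23.8 and 24.5 (−1.82 ± 0.37, adjusted p = 0.00077). In all 3 genes replicate 1 of the floxed group came close to the Villin-Cre libraries without reaching them. Higher in Villin-Cre were Soat1 (15.0, 17.6 and 14.1 against 34.6, 35.9 and 39.0, a log2 difference of 1.21 ± 0.08, adjusted p = 1.3e-08), Insig2 and Npc2 (49.5, 66.4 and 56.5 against 84.6, 87.6 and 90.3, a log2 difference of 0.61 ± 0.08, adjusted p = 9.6e-06).

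The spread inside 1 group was as wide as the genotype difference for many of these genes. Replicate 1 of floxed GW3965 liver was below both other libraries of its group in 27 of the 30 genes, and below all 3 floxed vehicle libraries in 29. The other 2 libraries of the group were above all floxed vehicle libraries in 24 genes. For 13 of the 21 genes that were lower in Villin-Cre vehicle liver, the gap between replicate 1 and the other 2 was at least as large as the genotype difference. The median gap over the 21 was 1.69 on the log2 scale and the median genotype difference −1.57. Replicate 1 was nevertheless above all Villin-Cre vehicle libraries in 19 of the 21. Without replicate 1 the counts were 25 lower and 4 higher under vehicle, against 14.0% and 50.3% of all genes, and 23 lower and 4 higher under GW3965, against 17.2% and 42.3%. With close libraries averaged, the only spread left was that between replicate 1 and the other 2 libraries of floxed GW3965. Few or none of the genotype calls were kept in that fit. Under vehicle that group is not compared, so the averaged fit cannot judge the genotype difference. The summed level of the 20 enzymes shows both distances: 4214 to 4285 CPM in floxed vehicle liver, 2036, 6757 and 6712 in floxed GW3965, 1382 to 1399.7 in Villin-Cre vehicle and 1872 to 1916 in Villin-Cre GW3965.

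**Figure D2:**
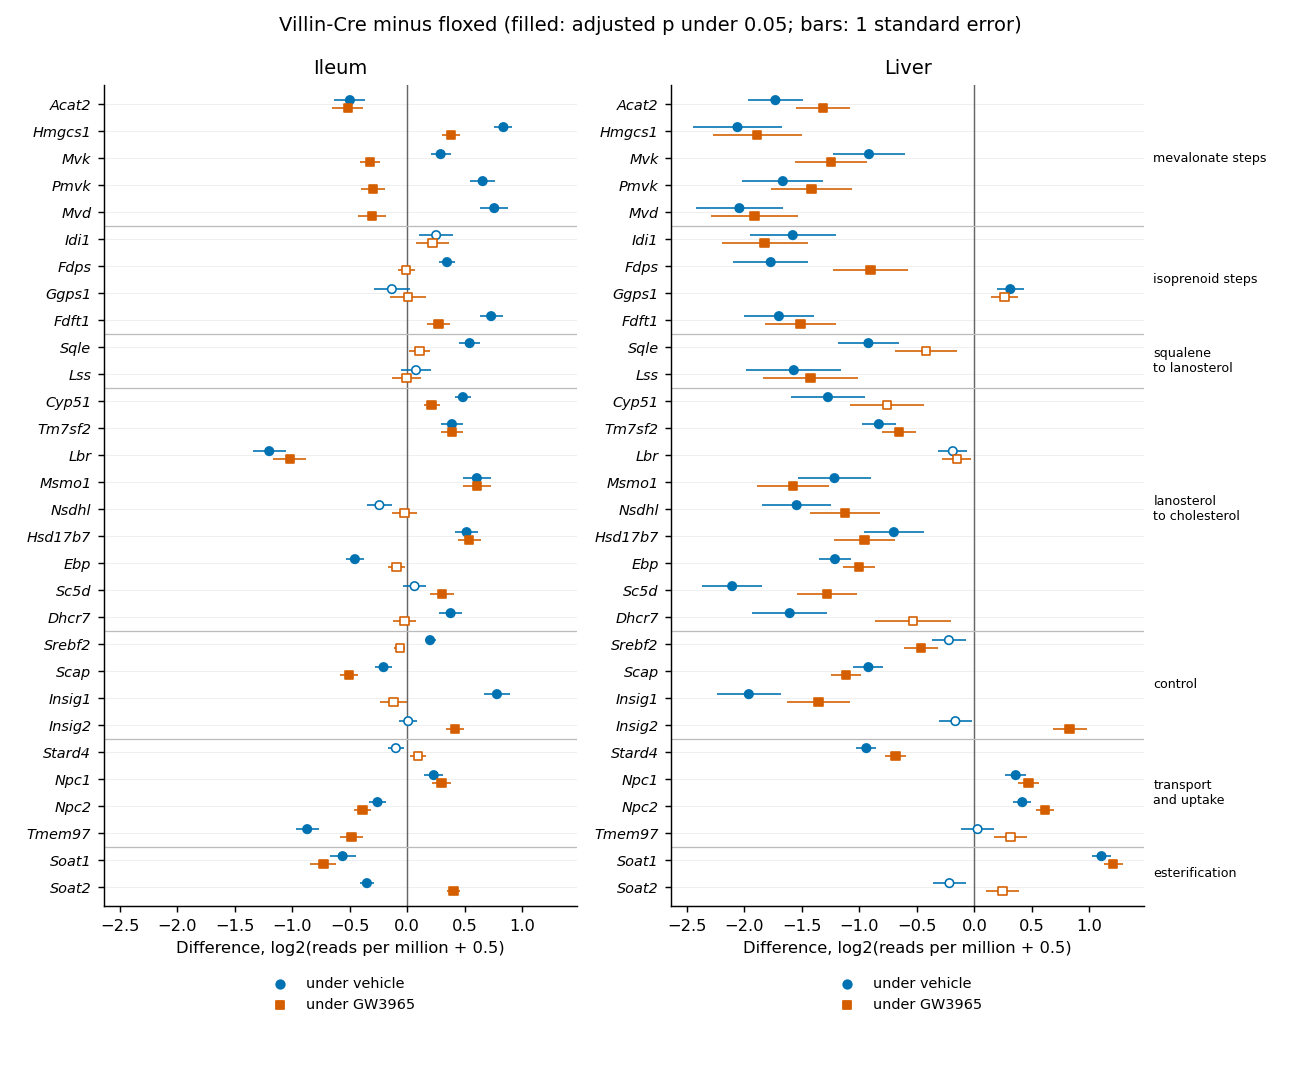
Difference between Villin-Cre and floxed mice for each gene, ileum on the left and liver on the right, on the log2(CPM + 0.5) scale; circles are vehicle and squares GW3965, bars are 1 standard error, and filled marks have an adjusted p under 0.05. In liver 21 of 30 genes under vehicle lie below 0 and are filled, while in ileum 15 are filled above 0 and 8 below.

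Markers of other cells moved with the liver genotypes. Summed over 10 genes, hepatocyte markers were at 78524 to 80958 CPM in floxed vehicle liver and at 54329 to 54828 in Villin-Cre vehicle liver, with 8 of 10 lower and 1 higher. All 6 macrophage markers (485 to 498 against 899 to 917 in sum), all 5 fibroblast markers (462 to 466 against 873 to 884) and both adipocyte markers that were tested were higher. The adipocyte markers tested were Cidec and Fabp4, and Cidec made up most of the sum (59.8 to 62.2 against 213 to 236). The rest of that list was near 0 in both genotypes under vehicle. Adipoq and Plin1 were at 0.11 CPM or less, and Lep was at 0 in floxed and at 0.21 or less in Villin-Cre libraries. In floxed GW3965 liver the hepatocyte sum ranged from 56989 to 71166. In bulk tissue fewer cells of a type and less RNA per cell cannot be told apart, and the part of these shifts in the results was not tested.

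Genes that feed or leave the pathway, from a list of 44, were read beside it. In Villin-Cre vehicle liver all 4 genes of precursor supply were lower, among them Acly, which makes cytosolic acetyl-CoA from citrate (1094 to 1115 in floxed, 215 to 216 in Villin-Cre libraries), and Acss2, which makes it from acetate (464 to 482 against 67.1 to 70.3). All 4 tested genes of oxysterol and bile acid conversion were lower too, among them Cyp7a1, the first enzyme of bile acid synthesis (236 to 263 against 17.5 to 18.9). Of the 13 genes of the isoprenoid branch, which turn the same intermediates into dolichol, ubiquinone and prenyl groups, 10 were higher and none lower. Their median log2 difference was 0.32, close to the 0.26 over all genes tested. In all, 20 of the 43 tested were higher and 14 lower, and 45.1% of all genes were higher and 11.7% lower.

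In the ileum, where the villin promoter is active, the genotypes under vehicle differed mostly in the opposite direction and by less. Under vehicle, 15 of the 30 genes were higher in Villin-Cre than in floxed ileum and 8 lower, against 9.61% of all 18656 genes higher and 30.7% lower. The median was 0.22 over the 30 genes and −0.18 over all genes. Of the 20 enzymes 12 were higher, with 4 of the 5 in the mevalonate steps. Hmgcs1 was at 239.7, 253 and 235 CPM in floxed and at 434, 433 and 435 in Villin-Cre ileum (0.84 ± 0.08, adjusted p = 3.8e-07). Insig1 was at 70.8, 69.5 and 71.1 against 124, 120.01 and 121 (0.78 ± 0.12, adjusted p = 5e-05). Mvd was at 24, 29.9 and 35.0 against 47.5, 47.2 and 55.3 (0.76 ± 0.12, adjusted p = 0.00011). None of these overlapped between the genotypes.

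Lower in Villin-Cre vehicle ileum were Lbr, at 64.4, 65.9 and 61.3 in floxed against 27.9, 28.5 and 26.2 (−1.20 ± 0.14, adjusted p = 5.2e-06), and Tmem97, an endoplasmic reticulum and lysosome protein that binds Npc1, at 17.0, 15.4 and 16.9 against 8.38, 9 and 8.94 (−0.87 ± 0.10, adjusted p = 4.2e-06). Soat1 was at 22.7, 21.4 and 19.6 against 13.2, 16.4 and 13.2 (−0.56 ± 0.11, adjusted p = 0.00082). Acat2 (−0.50 ± 0.13), the thiolase whose name is easily taken for that of Soat2, also was lower, as were Ebp, Scap, Npc2 and Soat2. Scaling by the median of gene ratios, which moves the median of all genes from −0.18 to 0.04, gave 19 higher and 4 lower. With close libraries averaged, none of these calls was kept. The only spread left there was that of floxed GW3965 ileum, which is not compared here, so that fit cannot judge this difference either.

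Under GW3965 the ileal genotypes differed in 10 genes higher and 9 lower, against 13.6% and 38.3% of all genes, and 17 higher and 3 lower after scaling by the median of gene ratios. Without replicate 3 of the floxed group the split turned to 7 higher and 11 lower, against 14.9% and 40.7%. Of the 5 mevalonate genes 4 were lower here (Acat2, Mvk, Pmvk and Mvd) and Hmgcs1 was higher, with and without that library. The median of all genes was −0.24 and moved to −0.00 with that scaling. Msmo1, which removes methyl groups from lanosterol's product, was at 101, 106 and 68.5 in floxed and at 144, 136 and 134 in Villin-Cre ileum (0.61 ± 0.12, adjusted p = 0.00044). Hsd17b7, a reductase of the same steps, was at 45.9, 51.2 and 36.2 against 64.4, 63.2 and 65.1 (0.54 ± 0.10, adjusted p = 0.00026). The third was Insig2 (0.42 ± 0.08, adjusted p = 0.00024). Lbr was again the gene with the largest difference downward, at 46.1, 44.6 and 30.9 against 23.99, 15.5 and 19.8 (−1.02 ± 0.14, adjusted p = 1.7e-05). Soat1 (15.7, 16.8 and 14.8 against 10.3, 8.46 and 9.24) and Acat2 (14.7, 16.1 and 10.98 against 9.87, 9.29 and 9.29) followed, at −0.73 ± 0.11 and −0.52 ± 0.13. With close libraries averaged, 0 of 30 passed (7 at an unadjusted p under 0.05).

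Ileal markers moved with the groups as well. The crypt and dividing-cell sum over 10 genes was 457 to 501 in floxed vehicle, 179 to 222 in floxed GW3965, 135 to 144 in Villin-Cre vehicle and 38.5 to 40.7 in Villin-Cre GW3965, with 9 of 10 lower in both genotype comparisons. The enterocyte sum over 12 genes was 6119 to 6435, 8662 to 10579, 7762 to 7862 and 17873 to 18448 in the same order, and the smooth muscle sum over 6 genes was 5945 to 6035, 2276 to 3426, 6279 to 6598 and 799 to 808. Whether these shifts had a part in the ileal results was not tested. As a check of the tissue, hepatocyte markers summed to 112 to 408 in ileum, mostly Cps1, and 10 of the 12 enterocyte markers had reads in floxed vehicle liver, where Apoa4 made up almost all of the sum and Sis and Cdx1 were at 0.

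Whether the genotype difference was the same in the 2 tissues was tested in 1 fit over all 24 libraries. The value is the ileal difference minus that in liver, so it can pass where only 1 tissue differs. Under GW3965 the ileal genotype calls went both ways. Under vehicle the difference was more positive in ileum than in liver for 22 of the 30 genes and more negative for 4, against 8.19% and 44.1% of the 20040 genes tested. The median was 1.23 over the 30 genes and −0.42 over all. The gap was 2.90 ± 0.43 on the log2 scale for Hmgcs1 (adjusted p = 5.3e-06), 2.80 ± 0.43 for Mvd (8.5e-06) and 2.74 ± 0.33 for Insig1 (2.3e-07). In the other direction it was −1.67 ± 0.14 for Soat1 (5.8e-10), −1.01 ± 0.21 for Lbr (0.00028) and −0.90 ± 0.17 for Tmem97 (0.00011). Under GW3965 the counts were 20 and 5, against 11.4% and 45.4% of all genes, and 23 and 5 without the libraries that stand apart, against 12.6% and 46.8%. The leading genes were Hmgcs1 (2.27 ± 0.43), Msmo1 (2.19 ± 0.37) and Idi1 (2.04 ± 0.44) in 1 direction and Soat1 (−1.94 ± 0.14), Npc2 (−1.0002 ± 0.11) and Lbr (−0.87 ± 0.21) in the other, each with an adjusted p of 0.0011 or less. Scaling by the median of gene ratios, which moves the median of all genes to 0.04 and 0.03, gave 25 and 1 under vehicle and 24 and 2 under GW3965. With close libraries averaged, 0 and 1 of 30 passed, with 2 at an unadjusted p under 0.05 in each.

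GW3965 changed part of the pathway in the ileum. In floxed ileum 9 of the 30 genes rose and 4 fell, against 14.7% and 20.9% of all genes; without replicate 3 of the GW3965 group 14 rose and 4 fell, against 17.8% and 21.8%. The median over the 30 was 0.05, and −0.08 over all genes. The genes that rose were mostly late enzymes (Tm7sf2, Msmo1, Sc5d and Dhcr7), transport genes (Stard4 and Npc1), Hmgcs1, Srebf2 and Insig1. With all libraries Idi1, Fdps, Ggps1, Fdft1, Sqle and Lss did not pass in either direction. For Fdft1, Sqle and Lss replicate 3 was below all vehicle libraries, and the other GW3965 libraries were above them. Sc5d was at 45.9, 51.8 and 47.0 under vehicle and at 96.9, 103 and 71.3 under GW3965 (0.89 ± 0.10, adjusted p = 3.8e-06). Dhcr7, the last reductase, was at 36.6, 38.3 and 34.7 against 63.9, 75.6 and 54.5 (0.80 ± 0.10, adjusted p = 6.1e-06). Insig1, itself an SREBP2 target, was at 70.8, 69.5 and 71.1 against 138, 144 and 90.6 (0.79 ± 0.12, adjusted p = 5e-05). In each of the 3 genes replicate 3 was the lowest GW3965 library and still above all vehicle libraries.

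Both esterifying enzymes fell in floxed ileum under GW3965. Soat2 was at 176, 183 and 183 under vehicle and at 128, 127 and 113 under GW3965 (−0.56 ± 0.06, adjusted p = 1.4e-06). Soat1 was at 22.7, 21.4 and 19.6 against 15.7, 16.8 and 14.8 (−0.42 ± 0.11, adjusted p = 0.0083). Lbr fell from 64.4, 65.9 and 61.3 to 46.1, 44.6 and 30.9 (−0.67 ± 0.14, adjusted p = 0.0014), and Ebp, the sterol isomerase, was the fourth (−0.25 ± 0.08, adjusted p = 0.018). Scaling by the median of gene ratios gave 12 higher and 3 lower. In the fit of averaged libraries, 0 of 30 passed (8 at an unadjusted p under 0.05).

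In Villin-Cre ileum GW3965 was followed by a rise of 9 genes and a fall of 9, against 21.5% and 31.1% of all genes. The median over the 30 was −0.14, and −0.11 over all genes. Late enzymes and transport genes rose here too. Sc5d was at 53.3, 47.4 and 50.7 under vehicle and at 107, 110.1 and 114 under GW3965 (1.12 ± 0.10, adjusted p = 8.2e-08). Stard4 was at 207, 194 and 198 against 346, 331 and 334 (0.75 ± 0.07, adjusted p = 1.1e-07). Npc1 was at 51.9, 50.1 and 50.9 against 80.1, 82.3 and 76.4 (0.64 ± 0.08, adjusted p = 5.6e-06). The mevalonate steps went the other way, with 3 of 5 lower. Pmvk, the second kinase of mevalonate, fell from 34.5, 43.1 and 41.2 to 19.4, 21.5 and 16.9 (−1.02 ± 0.11, adjusted p = 4.1e-07). Mvd fell from 47.5, 47.2 and 55.3 to 29.3, 28.6 and 25.7 (−0.83 ± 0.12, adjusted p = 2.2e-05), and Mvk, the first kinase, from 37.4, 36.7 and 37.9 to 23.5, 20.4 and 20.8 (−0.78 ± 0.09, adjusted p = 8.6e-07). In the 6 genes no library of 1 group overlapped the other. Scaling by the median of gene ratios gave 13 higher and 7 lower, and 1 of 30 passed with close libraries averaged, with 6 at an unadjusted p under 0.05.

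The interaction term, the response to GW3965 in Villin-Cre minus that in floxed ileum, passed in 16 genes, 4 higher and 12 lower, against 14.6% and 18.4% of all genes. Without replicate 3 of floxed GW3965 it was 3 higher and 13 lower, against 16.8% and 22.3%. Over the 30 the median was −0.06, over all genes −0.03. Enzymes made up 9 of the 12, 4 of them among the 5 mevalonate steps. The most negative terms were those of Mvd (−1.06 ± 0.17, adjusted p = 0.00016), Pmvk (−0.95 ± 0.15, adjusted p = 0.00012) and Insig1 (−0.90 ± 0.16, adjusted p = 0.00045). Insig1 rose with GW3965 in floxed ileum and was at 124, 120.01 and 121 and at 112, 111 and 114 in Villin-Cre ileum without and with it. The most positive term was that of Soat2 (0.75 ± 0.08, adjusted p = 3.2e-06), which fell in floxed and rose in Villin-Cre ileum (136, 138 and 151 to 163, 165 and 159). It was followed by Insig2 (0.41 ± 0.11, adjusted p = 0.0082) and Tmem97 (0.39 ± 0.14, adjusted p = 0.048), whose call was lost without that replicate 3 (0.34, adjusted p = 0.11). Sc5d, Stard4, Npc1, Tm7sf2, Msmo1, Lbr and Soat1, which moved the same way in both genotypes, had terms that did not pass, from −0.17 to 0.24. Once close libraries were averaged, 0 of 30 passed (3 at an unadjusted p under 0.05). The 4 ileal comparisons share groups with each other, so their counts are not independent.

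**Figure D3:**
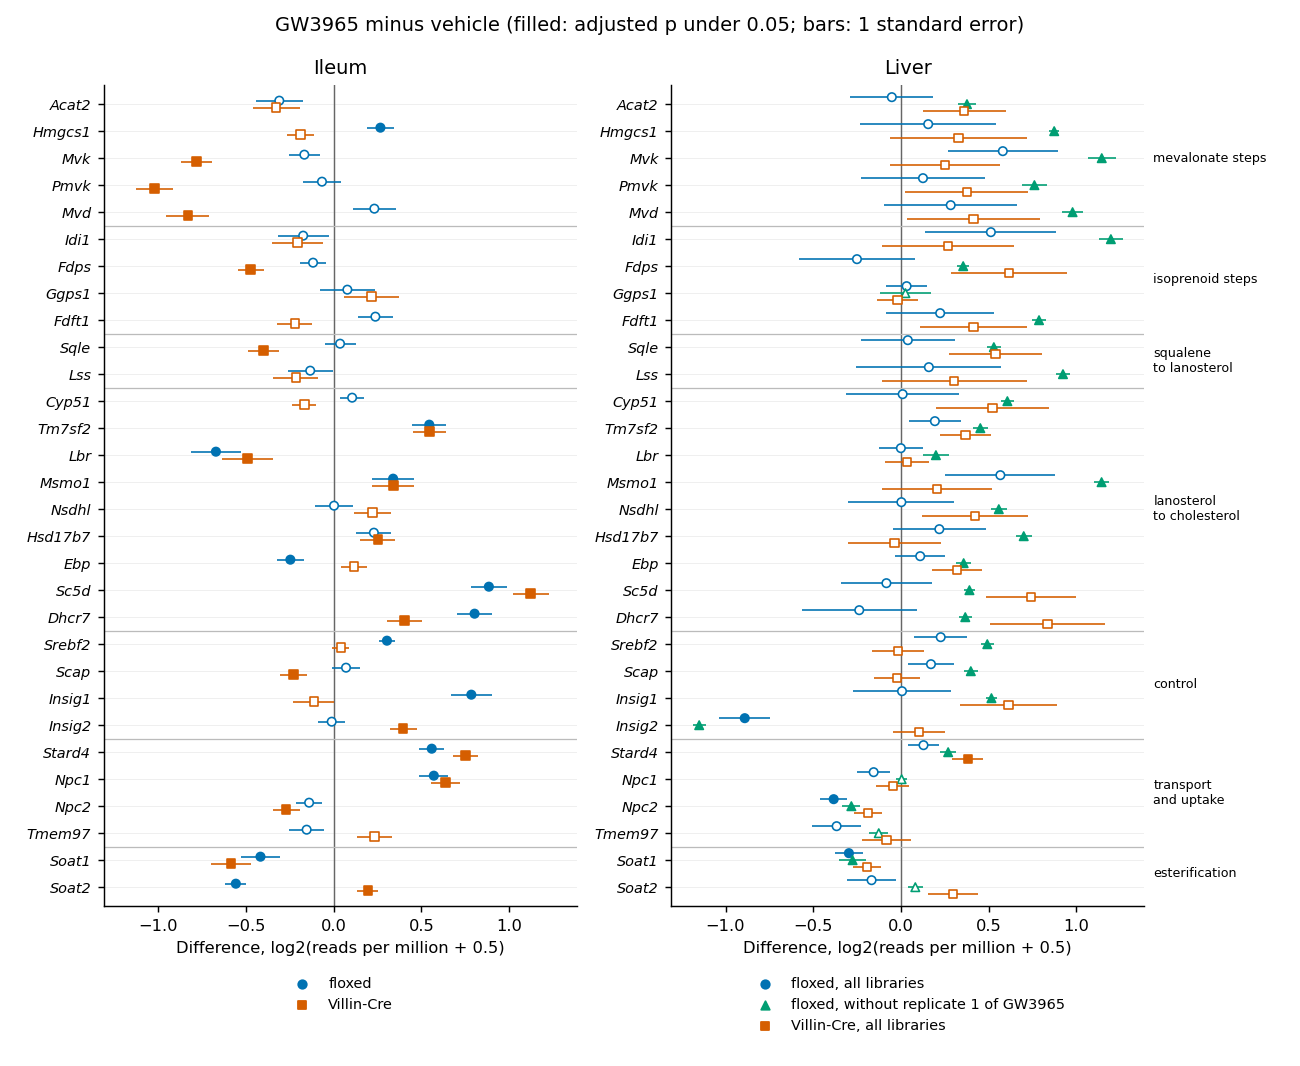
Difference between GW3965 and vehicle for each gene, ileum on the left and liver on the right, on the log2(CPM + 0.5) scale, with bars of 1 standard error and filled marks for an adjusted p under 0.05. Circles are floxed mice and squares Villin-Cre mice; triangles in the liver panel are floxed mice without replicate 1 of the GW3965 group, where 23 genes are filled above 0 against none with that library.

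Around the pathway, 13 of the 41 tested genes rose with GW3965 in floxed ileum and 11 fell, and 20 rose and 7 fell in Villin-Cre ileum. Over all genes 14.7% rose and 20.9% fell in floxed and 21.5% and 31.1% in Villin-Cre ileum. The group with the most that rose was that of uptake and transport inside the cell, with 7 and 9 of 12. The 6 genes with the smallest p in either ileal comparison are described, and 5 of them rose in both genotypes. Gramd1b, which moves cholesterol from the plasma membrane to the endoplasmic reticulum, was at 58.1, 57.6 and 55.5 under vehicle and at 159.7, 162 and 147 under GW3965 in floxed ileum (1.44 ± 0.06) and rose by 1.07 ± 0.06 in Villin-Cre ileum. Npc1l1, which takes up cholesterol from the gut lumen, was at 532, 558 and 550 against 1047.5, 1073 and 1028.5 in floxed ileum, and the rises were 0.94 ± 0.04 and 0.96 ± 0.04. Mylip, a ubiquitin ligase and known LXR target, was at 16.6, 15.9 and 15.1 against 78.9, 77.0 and 63.5 in floxed ileum (2.16 ± 0.09) and rose by 1.19 ± 0.09 in Villin-Cre ileum. Cyp27a1, a sterol hydroxylase, rose by 1.23 ± 0.14 and 1.91 ± 0.14, and Erlin1, which takes part in the degradation of sterol-regulated proteins, by 0.51 ± 0.08 and 1.29 ± 0.08. Srebf1, another LXR target and the factor behind fatty acid synthesis, was at 81.4, 79.1 and 90.1 against 489, 495 and 252 in floxed ileum (2.23 ± 0.17, adjusted p = 2.5e-08). In Villin-Cre ileum Srebf1 was at 80.9, 71.98 and 80.5 against 82.1, 83.3 and 83.0 (0.09 ± 0.17, adjusted p = 0.68), and the interaction was −2.14 ± 0.24 (adjusted p = 3.4e-06).

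In the liver the count of genes that responded to GW3965 rested on 1 library. With all libraries, 0 of the 30 genes rose in floxed liver and 3 fell, against 10.4% and 19.7% of all genes. Without replicate 1 of the GW3965 group 23 rose and 3 fell, against 15.6% and 23.5%, and the median over the 30 moved from 0.04 to 0.43. Mvk, chosen after its values were seen, shows the pattern: it was at 37.5, 37.9 and 37.8 under vehicle and at 25.7, 83.9 and 84.2 under GW3965, so that the mean difference of 0.58 ± 0.32 (adjusted p = 0.19) stands for 1 library below and 2 above the vehicle range. Without replicate 1 the difference was 1.15 (adjusted p = 5e-14), and 19 of the 20 enzymes rose.

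The 3 genes that fell in floxed liver did so with and without that library. Insig2 was at 245, 231 and 240.3 under vehicle and at 184, 109.4 and 105 under GW3965 (−0.89 ± 0.15, adjusted p = 0.00038; −1.15 without replicate 1). It is the 1 gene of the 30 in which replicate 1 was above both other libraries of its group. Npc2 was at 75.2, 74.0 and 74.4 against 49.5, 66.4 and 56.5 (−0.38 ± 0.08, adjusted p = 0.0018). Soat1 was at 18.5, 18.7 and 20.4 against 15.0, 17.6 and 14.1 (−0.30 ± 0.08, adjusted p = 0.012). After averaging of close libraries, 0 of 30 passed, also at an unadjusted p under 0.05.

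In Villin-Cre liver 1 gene rose and none fell, against 2.85% and 9.03% of all genes, and 8 had an unadjusted p under 0.05. This gene was Stard4, at 54.0, 54.9 and 56.2 under vehicle and at 71.6, 72.2 and 71.8 under GW3965 (0.38 ± 0.09, adjusted p = 0.013). Replicate 1 of the floxed group enters this comparison through the shared estimate of the spread. Without that library 21 genes rose and 2 fell, against 6.69% and 20.1%. Dhcr7 (73.9, 76.4 and 75.3 to 140.5, 134 and 129) and Sc5d (152, 160.5 and 163 to 262, 265 and 269) then had the largest differences, 0.84 and 0.74, the same sizes as with all libraries, where their adjusted p was 0.12 and 0.079. In the fit of averaged libraries, 0 of 30 passed, also at an unadjusted p under 0.05.

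The liver interaction passed in 1 gene with all libraries, Insig2 (0.99 ± 0.21, adjusted p = 0.0041), which fell with GW3965 in floxed liver and was at 209.8, 211 and 217 and at 220.1, 229 and 237 in Villin-Cre liver. Over all genes 10.2% passed upward and 9.70% downward. Without the library that stands apart it passed in 5 genes upward and 11 downward, against 15.2% and 17.6%. Once close libraries were averaged, 0 of 30 passed, also at an unadjusted p under 0.05.

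Whether GW3965 acted differently in ileum and liver was tested as a difference of the differences. In floxed mice 5 genes were more positive in ileum and 1 was more negative, against 13.7% and 12.7% of all genes. They were led by Dhcr7 (1.04 ± 0.37, adjusted p = 0.041), Sc5d (0.97 ± 0.30, adjusted p = 0.019) and Insig2 (0.88 ± 0.17, adjusted p = 0.00045), and the negative one was Lbr (−0.67 ± 0.21, adjusted p = 0.019). Without the 2 libraries that stand apart the counts were 6 and 19, against 17.0% and 15.0%. In Villin-Cre mice 2 were more positive, Npc1 (0.68 ± 0.13, adjusted p = 0.00018) and Stard4 (0.37 ± 0.12, adjusted p = 0.016), and 7 more negative, against 18.7% and 20.6% of all genes. The most negative were Pmvk (−1.40 ± 0.40, adjusted p = 0.0068), Mvd (−1.25 ± 0.43, adjusted p = 0.024) and Fdps (−1.09 ± 0.36, adjusted p = 0.02). Without the 2 libraries the counts were 6 and 17, against 21.7% and 24.1%. After averaging of close libraries, 0 of 30 passed in either genotype, also at an unadjusted p under 0.05.

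Set directly against liver, floxed vehicle ileum had 22 of the 30 genes lower and 5 higher, against 28.0% and 43.8% of all genes, with a median of −1.71 over the 30 and 0.22 over all. The counts were the same under GW3965 in floxed mice, 22 and 5, against 30.1% and 42.3%, and 23 and 5 without the libraries that stand apart, against 29.1% and 42.3%. In Villin-Cre mice the distance was smaller. Under vehicle 13 were lower and 10 higher, against 45.2% and 29.2% of all genes, and the median over the 30 was −0.28. Under GW3965 15 were lower and 5 higher, against 45.9% and 29.4%, and the median was −0.59. Hmgcs1 changed sides: its level was 239.7, 253 and 235 in ileum against 1010, 1029 and 1069 in liver of floxed vehicle mice (−2.09 ± 0.31), and 434, 433 and 435 against 248 in each library of Villin-Cre vehicle mice (0.81 ± 0.31, adjusted p = 0.021). Mvk, Pmvk, Mvd, Fdft1, Sqle and Msmo1 likewise were higher in ileum than in liver in Villin-Cre vehicle mice (0.71 to 1.74), and each was lower or did not pass in floxed vehicle mice. Scaling by the median of gene ratios gave 12 higher and 10 lower under vehicle and 9 and 14 under GW3965 in Villin-Cre mice. In the fit of averaged libraries, the counts higher and lower were 1 and 11, 3 and 13, 2 and 8, and 2 and 8 in the 4 groups.

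**Figure D4:**
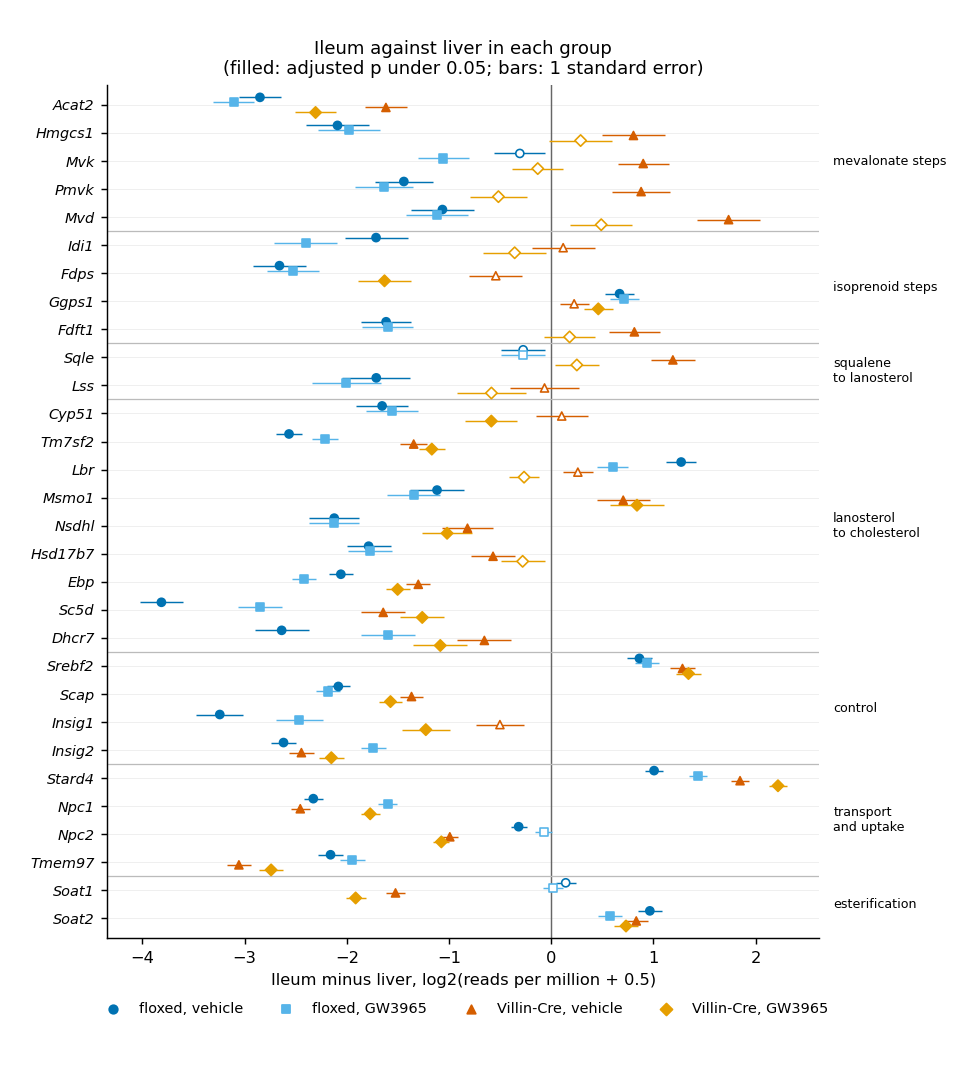
Ileum minus liver for each gene in the 4 groups, on the log2(CPM + 0.5) scale, with bars of 1 standard error and filled marks for an adjusted p under 0.05. Blue marks (floxed) of most enzymes lie between −1 and −4, orange marks (Villin-Cre) closer to 0, and the mevalonate genes but Acat2 lie above 0 in Villin-Cre vehicle mice.

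Some genes kept their tissue in all 4 groups. Stard4 was higher in ileum by 1.63 on the log2 scale as a mean of the 4 differences, from 1.01 in floxed vehicle to 2.22 in Villin-Cre GW3965 mice. Its floxed vehicle levels were 208, 224 and 209 in ileum and 102, 111 and 105 in liver. Srebf2 was higher in ileum by 1.11 (0.86 to 1.34), with 315, 305 and 329 against 175, 175 and 170.2 in floxed vehicle mice. Soat2 was higher by 0.78 (0.58 to 0.97), with 176, 183 and 183 against 91.9, 90.9 and 93.9. These 3 of the 30 were higher in all 4 groups with no overlap between the tissues, as were 19.2% of all genes tested.

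Lower in all 4 groups with no overlap were 10 of the 30 genes, against 20% of all genes (4004 of 20040), led by Tmem97 (−2.48 on average, with 17.0, 15.4 and 16.9 against 74.8, 70.8 and 79.9 in floxed vehicle mice), Acat2 (−2.47, with 18.5, 17.3 and 15.8 against 136, 122 and 123) and Sc5d (−2.39, with 45.9, 51.8 and 47.0 against 672, 686 and 695). Insig2 (−2.24) and Npc1 (−2.04) followed, Npc1 with 43.4, 47.8 and 39.2 in ileum against 217, 225 and 216 in liver. For Sc5d the distance ranged from −3.81 in floxed vehicle to −1.26 in Villin-Cre GW3965 mice, whereas for Insig2 it ranged from −2.62 to −1.74.

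Of the control genes, Srebf2 rose by 0.30 ± 0.05 with GW3965 in floxed ileum (adjusted p = 9.1e-05; 315, 305 and 329 to 389, 404 and 378), and was higher in Villin-Cre than in floxed vehicle ileum by 0.20 ± 0.05 (365, 352 and 373). In vehicle liver its difference between genotypes was −0.22 ± 0.15 (adjusted p = 0.22; 175, 175 and 170.2 against 151, 149 and 146), and under GW3965 −0.47 ± 0.15 (adjusted p = 0.016; 140.4, 237 and 251 against 153, 148 and 140.3). Scap was lower in Villin-Cre liver, at 217, 213 and 223 against 115, 116 and 113 under vehicle (−0.92 ± 0.13, adjusted p = 3.4e-05) and by −1.12 ± 0.13 under GW3965. In ileum Scap was lower in Villin-Cre mice by −0.21 ± 0.08 under vehicle (adjusted p = 0.045), a difference that became 0.04 with scaling by the median of gene ratios, and by −0.51 ± 0.08 under GW3965.

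Insig1 and Insig2, which retain the Scap and SREBP2 complex, went separate ways. Insig1 followed the enzymes in liver, at 657, 678 and 681 in floxed vehicle, 333, 943 and 979 in floxed GW3965, 171, 173 and 173 in Villin-Cre vehicle and 268, 264 and 259 in Villin-Cre GW3965 libraries. Its genotype difference was −1.96 ± 0.28 under vehicle (adjusted p = 3.2e-05) and −1.35 ± 0.28 under GW3965 (adjusted p = 0.00075). Insig2 in the same libraries was at 245, 231 and 240.3, then 184, 109.4 and 105, then 209.8, 211 and 217, then 220.1, 229 and 237, so that it was lowest where Insig1 was highest. The Insig2 genotype difference was −0.17 ± 0.15 under vehicle (adjusted p = 0.35) and 0.83 ± 0.15 under GW3965 (adjusted p = 0.00022). In ileum Insig2 was at 38.1, 37.1 and 40.1, then 37.6, 40.4 and 36.4, then 35.8, 39.1 and 41.2 in the first 3 groups in that order, which overlap, and at 53.7, 47.0 and 52.7 in Villin-Cre GW3965 mice.

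The esterifying enzymes differed from each other too. Soat1 was lower in Villin-Cre ileum and higher in Villin-Cre liver under both treatments, and ileum and liver had overlapping Soat1 levels in floxed mice (0.14 ± 0.10 and 0.02 ± 0.10) but not in Villin-Cre mice (−1.52 ± 0.10 and −1.91 ± 0.10). Macrophage markers were higher in Villin-Cre liver too, 6 of 6 under vehicle and 5 of 6 under GW3965. In the ileal genotypes under GW3965, where Soat1 was lower, 1 of 5 was higher and none lower. Under vehicle, where ileal Soat1 was lower too, the sum of the 6 markers was 183 to 189 in floxed and 137 to 144 in Villin-Cre ileum. Csf1r, C1qa, C1qb, Cd68 and Adgre1 were each lower in all Villin-Cre than in all floxed libraries there, and Clec4f was near the floor in both. With GW3965 against vehicle, where Soat1 fell, all 5 tested markers were lower in floxed and in Villin-Cre ileum. The part of macrophage markers in the Soat1 values was not tested. Soat2 in liver was at 91.9, 90.9 and 93.9, then 58.0, 98.8 and 96.6, then 80.3, 81.6 and 76.1, then 98.4, 100.6 and 93.5 in the same group order, and no Soat2 comparison between liver groups passed with all libraries (adjusted p from 0.13 to 0.41).

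**Figure D5:**
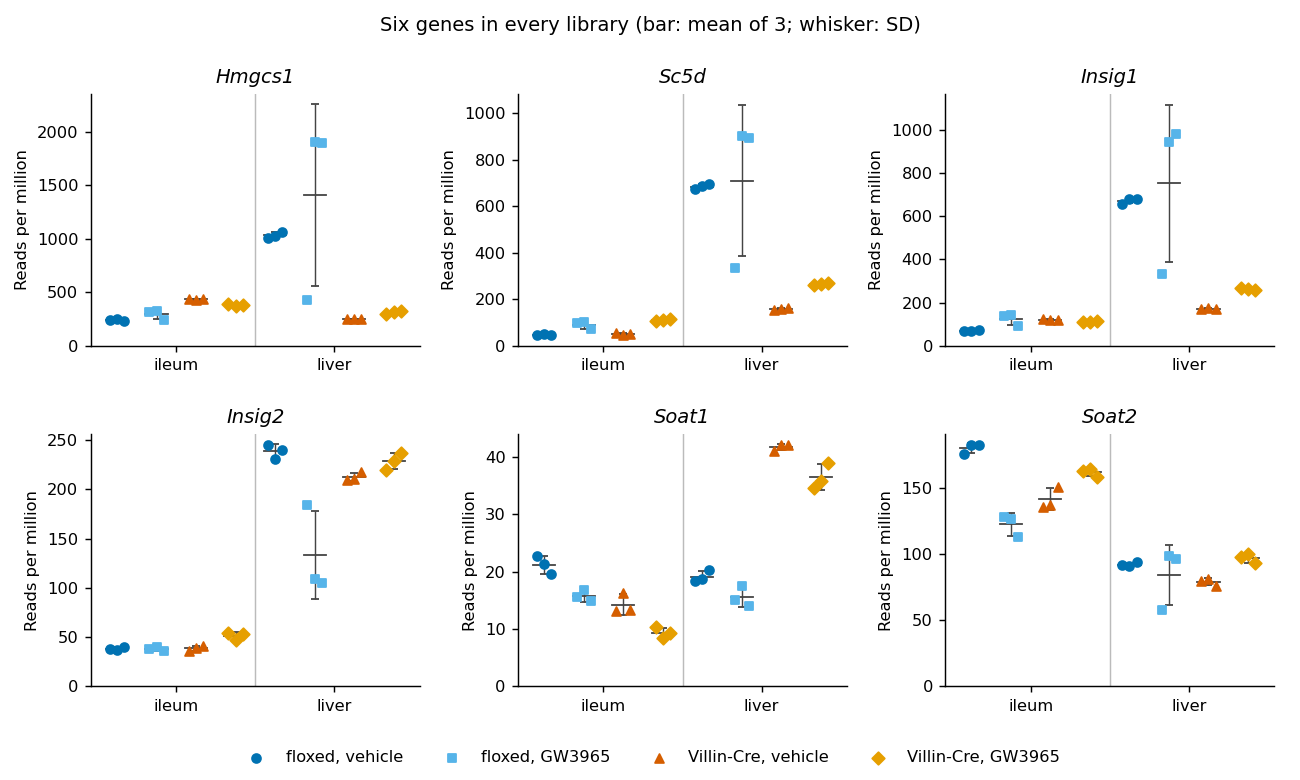
CPM of 6 genes in every library, ileum left and liver right of the grey line, in the order floxed vehicle, floxed GW3965, Villin-Cre vehicle and Villin-Cre GW3965; bars are means of 3 libraries and whiskers SD, and each axis starts at 0. In floxed GW3965 liver 1 library lies below the other 2 for Hmgcs1, Sc5d, Insig1 and Soat2 and above them for Insig2.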

How the data were processed

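RNA-seq of 24 libraries, 12 of ileum and 12 of liver, was analysed. Per the labels' protocols, ribosomal RNA was depleted and libraries were read as pairs of 150 bases; the submitters' processing notes list GRCm38, featureCounts 1.4.6-p5, STAR 2.5.1a, bcl2fastq and Subread. Neither strand setting nor annotation release nor the formula of the values was given in the sources used here. Deposited values are log2 expression per gene, with a floor of −5.62 in every library. They were turned into CPM by subtracting the floor on the linear scale; low values were then whole multiples of 1 read in each library, within 0.05 read. Each table has 40757 entries, of which 276 exact repeats were dropped.

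The tests had been planned for counts; as the deposited unit is log2, limma 3.58.1 (R 4.3.3) was used, with group means, an intensity trend and Benjamini-Hochberg adjustment at 0.05, on log2(CPM + 0.5), which understates the change of low genes. Genes with at least 0.5 CPM in 3 libraries were kept, 18656 in ileum, 17520 in liver and 20040 in the fit of both tissues. Values between genes were divided by the summed exon length. Tables were made with Python 3.11.15, pandas 2.3.3 and numpy 2.4.6 and figures with matplotlib 3.10.9. The tests were tried on simulated data.

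Genes are described with every library where they passed with no overlap and had the largest change, up to 3 each way in a comparison of treatment or genotype, 3 each way in a difference of differences (where overlap did not matter) and 5 each way between tissues. Srebf2, Scap, Insig1, Insig2, Soat1 and Soat2 are described in any case, as are the 6 other pathway genes with the smallest p in ileum under GW3965. Other genes named were chosen after their values were seen. The members and lists were chosen with earlier results of these data known. Alternatives were another scaling, no filter, a pseudocount of 2, log2 values as they stand, recovered reads with voom, a fit of the compared groups alone, a replicate block, averaged close libraries and each library left out.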

Additional observations from a re-analysis of the deposited data

Results flagged for a closer look

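Floxed and Villin-Cre ileum differed in how GW3965 acted (interaction term of limma on the log2 scale) for Soat2 (0.75), Insig2 (0.41) and Tmem97 (0.39, a call lost without replicate 3 of floxed GW3965) upward and for Mvd (−1.06), Pmvk (−0.95) and Insig1 (−0.90) downward, and in the liver for Insig2 (0.99). Between ileum and liver the response differed in floxed mice for Dhcr7 (1.04), Sc5d (0.97), Insig2 (0.88) and Lbr (−0.67), and in Villin-Cre mice for Npc1 (0.68), Stard4 (0.37), Pmvk (−1.40), Mvd (−1.25) and Fdps (−1.09). The floxed values include replicate 1 of floxed GW3965 liver. It was below all floxed vehicle liver libraries for Dhcr7 (84.0 against 224 to 236 CPM) and Sc5d (335 against 672 to 695). The other libraries of its group were above them (296 to 297 and 892 to 903).

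The difference between genotypes was not the same in ileum as in liver under vehicle for Hmgcs1 (2.90), Mvd (2.80), Insig1 (2.74), Soat1 (−1.67), Lbr (−1.01) and Tmem97 (−0.90). Under GW3965 this held for Hmgcs1 (2.27), Msmo1 (2.19), Idi1 (2.04), Soat1 (−1.94), Npc2 (−1.0002) and Lbr (−0.87).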

How the results depend on the processing

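Averaging close libraries left few calls among the 30 genes: 0, 1, 0, 0 and 0 in ileum (GW3965 in floxed and in Villin-Cre mice, genotype under vehicle and under GW3965, interaction), 0, 0, 0, 1 and 0 in liver, 12, 16, 10 and 10 between tissues, and 0, 0, 0 and 1 for the differences between tissues. This leaves only the floxed GW3965 groups to estimate the spread, so few calls cannot show that differences are absent. Without the libraries that stand apart, an alternative chosen after seeing the data, the counts were 26 (GW3965, floxed liver), 23 (Villin-Cre liver), 16 (liver interaction), 25 and 23 (GW3965 in ileum minus liver, floxed and Villin-Cre). With no filter they were 9 (ileum interaction), 0 and 0 (GW3965 in Villin-Cre liver, liver interaction), 3 and 3 (GW3965 in ileum minus liver) and 16 (genotype in ileum minus liver under GW3965). With only the groups compared in the fit they were 23 (GW3965 in Villin-Cre liver), 2 and 22 (GW3965 in ileum minus liver) and 16 (genotype in ileum minus liver under GW3965), and voom on recovered reads gave 4 for GW3965 in ileum minus liver in Villin-Cre mice.

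Leaving out 1 library of the groups compared gave 10 to 18 for GW3965 in floxed ileum, 14 to 17 in Villin-Cre ileum, 20 to 23 and 15 to 18 for the ileal genotypes and 11 to 16 for the ileal interaction. In liver it gave 2 to 26, 0 to 1, 22 to 24, 21 to 27 and 1 to 16 in the same order. Between tissues it gave 27 to 27, 27 to 29, 21 to 23 and 19 to 20, and for the differences between tissues 4 to 24, 7 to 9, 25 to 27 and 17 to 28.

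Some values changed sign. With the median of gene ratios, Scap became 0.042 (ileal genotypes, vehicle), Srebf2 0.22 (ileal genotypes, GW3965), Soat2 0.44 and Insig2 0.15 (genotype in ileum minus liver, vehicle and GW3965). Srebf2 for GW3965 in ileum minus liver, floxed, became −0.17 without the libraries that stand apart and −0.19 without the liver one alone. Leaving out 1 library at a time, that Srebf2 value ranged up to 0.23. The cause was not tested. Of the other single-gene values, 1378 kept direction and call, 143 lost and 43 gained the call; with 1 library left out the numbers were 1296, 79 and 16.

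Same-numbered replicates did not deviate together (correlations from −0.04 to 0.05). With a replicate block the counts were 14, 21, 23, 18 and 15 in ileum, 4, 1, 25, 24 and 1 in liver, 27, 27, 24 and 20 between tissues and 6, 8, 26 and 25 for the differences.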
